A study of Mus musculus with 2 samples.

Results

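The peroxisome proliferator activated receptors (PPARs), their dimer partners the retinoid X receptors (RXRs) and 4 coregulators were examined in the small intestine of mice fed marine n-3 fatty acids. The group comprised 10 genes: the receptors Ppara, Ppard and Pparg, the partners Rxra, Rxrb and Rxrg, the coactivators Ppargc1a and Ppargc1b, and the repressors Nrip1 and Ncor1. Every probe set annotated to 1 of these symbols was taken, which gave 23 of the 45037 probe sets that read mouse transcripts. All mice were male C57BL/6J animals, 4 months old, kept for 4 weeks on isocaloric semisynthetic diets with 20% fat by weight. The EPA&DHA diet (sHFf-F2) had 44% of its lipids exchanged for a concentrate of 6% EPA and 51% DHA, and RNA of 11 of its 12 mice was pooled. The control diet (sHFf) had flaxseed oil, rich in α-linolenic acid (ALA), as its lipid, and RNA of 10 of its 12 mice was pooled. Each pool was hybridized to 1 Affymetrix MOE430_2 array, so there were no replicates. Differences between mice were not measured, diet and array cannot be told apart, and no test or p-value was computed.

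PPARs are nuclear receptors that bind fatty acids and their derivatives, pair with an RXR and switch on genes of lipid handling. PPARα is the form best known for fatty acid oxidation and is abundant in liver and in the absorptive cells of the gut, where dietary fat first meets the body. PPARδ is expressed in most tissues, and PPARγ drives fat cell formation. Without ligand, a receptor can hold corepressors such as NCoR1 on DNA, while ligand favours coactivators. PGC-1α and PGC-1β, the products of Ppargc1a and Ppargc1b, are coactivators that also promote mitochondrial gene expression, and RIP140, the product of Nrip1, binds active receptors and represses.

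Ppara was the only one of the measured members at least 1.5-fold apart between the diets, and it was higher on EPA&DHA on each of its 3 probe sets. The other members lay closer to 1, with Ppard lowest at 1.40-fold lower. Values are MAS 5.0 signals in arbitrary units, and the ratio is EPA&DHA over control. Signals of different probe sets are not on 1 scale, so levels were compared between the arrays and not between genes. As no detection calls were used here, only the brighter 53.9% of probe sets by mean log2 signal were read, down to a mean signal of 51.1, and are called kept below. Of the 23 member probe sets 20 were kept, and they gave values for 8 of the 10 members. Ncor1 had no probe set under its name in the annotation used here, and the probe set of Rxrg was too dim. Where a gene had several kept probe sets, the brightest one stands for it. The robust SD of the log2 ratios of the 500 kept probe sets nearest in signal (the local SD) served as a yardstick for the noise between these arrays. It ran from 0.22 to 0.65 over the kept member probe sets and includes any true difference between the pools.

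On this scale 1 of 8 members reached 1.5-fold higher and 0 of 8 reached 1.5-fold lower. Over all 11687 genes with a kept probe set, 6.19% reached 1.5-fold higher and 7.9% reached 1.5-fold lower. A count of 1 in 8 is thus not set apart from the background by number, and the members had a median log2 ratio of -0.04, against -0.05 over all genes. By probe set, 3 of 20 were at least 1.5-fold higher, all of them of Ppara, against 8.06% of kept probe sets. None was at least 1.5-fold lower, against 8.85%.

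**Figure D1:**
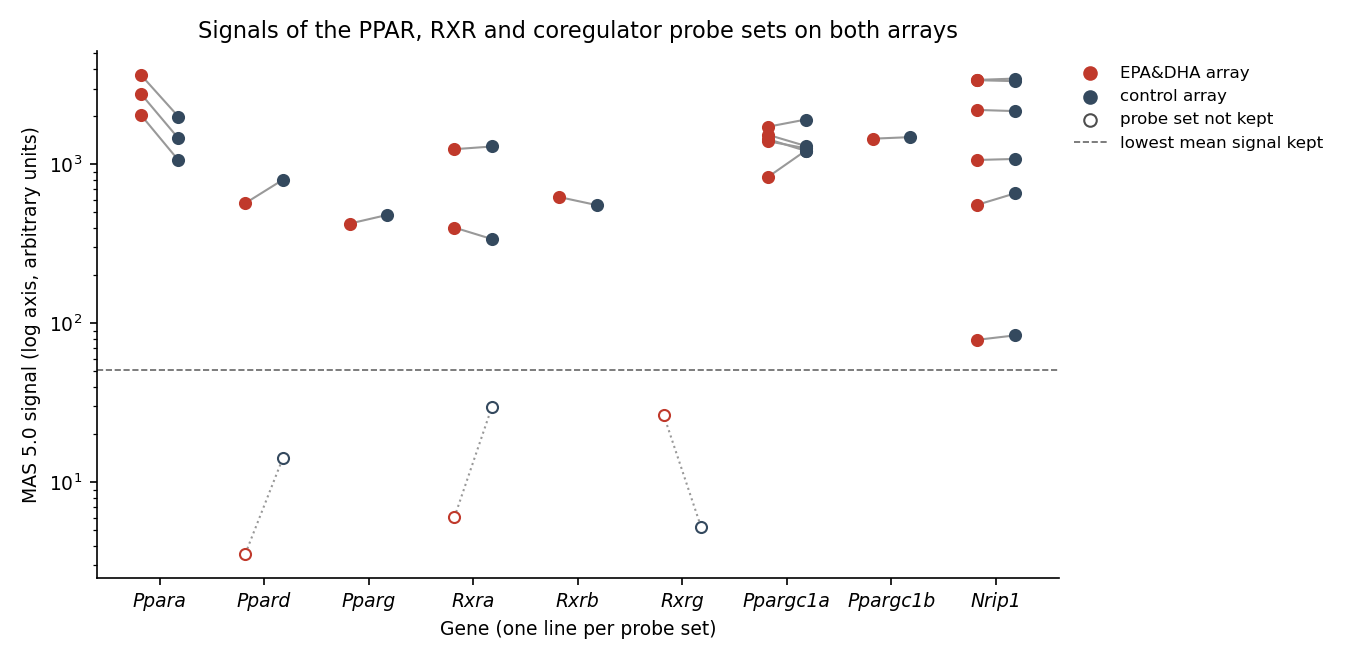
MAS 5.0 signal (log axis) of each member probe set on the EPA&DHA array (red, left) and the control array (dark, right), joined by a line. The 3 lines of Ppara fall to the control side, those of Nrip1 are nearly level, and open circles mark the 3 dim probe sets that were not kept.

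The receptor for fatty acid oxidation, Ppara, had a signal of 3664 on EPA&DHA and 1998 on the control diet on its brightest probe set, 1449051_at. On 1439675_at the signals were 2787 on EPA&DHA and 1459 on the control diet, and on 1457721_at they were 2051 on EPA&DHA and 1063 on the control diet. All 3 probe sets were thus well above the dimmest signals kept on both arrays. The log2 ratios of 0.87, 0.93 and 0.95 correspond to 1.83-fold, 1.91-fold and 1.93-fold. Each was between 3.41 and 3.76 local SDs above 0, and 1.5% of all kept probe sets were more than 3 local SDs higher. The probe sets of Ppara differed from each other by 0.07 on the log2 scale. Among the 1329 genes with 3 kept probe sets the median range was 0.53, and it was 0.34 in the 236 of them whose probe sets all had a mean signal of at least 500. Of 2266 genes with at least 3 kept probe sets, 17 including Ppara had all of them at least 1.5-fold higher, which is 0.75%.

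Ppard, which encodes the broadly expressed PPARδ, was read at 570 on EPA&DHA and 800 on the control diet by probe set 1439797_at. This is a log2 ratio of -0.49, or 1.40-fold lower, and 1.82 local SDs from 0, short of the 1.5-fold mark. Its other probe set had signals of 3.55 on EPA&DHA and 14.2 on the control diet. Both are far under the lowest mean signal kept, so no ratio was read from them. A further probe set, shared by Ppard and the long noncoding RNA 1810013A23Rik, was just as dim, with 9.73 on EPA&DHA and 4.83 on the control diet.

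Pparg, the receptor of fat cell formation, had 1 probe set with 424 on EPA&DHA and 481 on the control diet, a log2 ratio of -0.18 and 0.55 local SDs from 0. Its suffix (_a_at) marks probes shared by several transcripts of the gene, so the isoforms of PPARγ were not separated. The log2 ratio of Ppara was thus above 0 and those of Ppard and Pparg below it. Ppard and Pparg differed by 0.31, only 0.72 of their combined local SD, and were not told apart. Within the arrays, the ratio of Ppara to Ppard was 2.58-fold higher on EPA&DHA and that of Ppara to Pparg 2.08-fold higher. A single scale factor for an array cancels in these values.

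**Figure D2:**
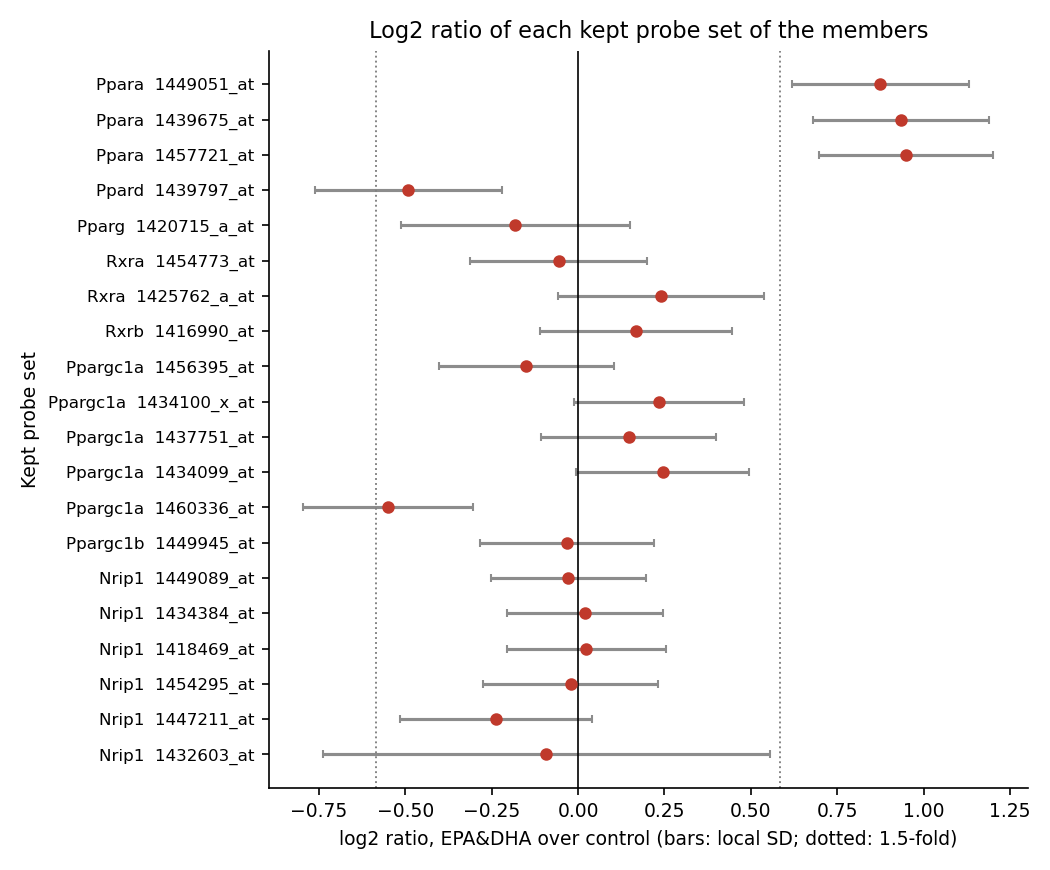
Log2 ratio of EPA&DHA over control (x axis) for the 20 kept member probe sets, with the local SD as a bar and 1.5-fold as dotted lines. The 3 probe sets of Ppara lie between 0.87 and 0.95, those of Ppargc1a spread from -0.55 to 0.24, and 1 probe set of Nrip1 has a wide bar because it is dim.

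The promoters of Ppara and Ppard are shown because these receptors had the highest and the lowest ratio of the measured members. Each sequence runs from 250 bases before to 50 bases after an annotated start in RefSeq, build GRCm38.p6, both on the plus strand, at chr15:85735526-85735825 for Ppara and chr17:28232504-28232803 for Ppard. Capitals mark GGGCGG, the core of the GC box read by Sp1-like factors, searched on both strands.
Ppara: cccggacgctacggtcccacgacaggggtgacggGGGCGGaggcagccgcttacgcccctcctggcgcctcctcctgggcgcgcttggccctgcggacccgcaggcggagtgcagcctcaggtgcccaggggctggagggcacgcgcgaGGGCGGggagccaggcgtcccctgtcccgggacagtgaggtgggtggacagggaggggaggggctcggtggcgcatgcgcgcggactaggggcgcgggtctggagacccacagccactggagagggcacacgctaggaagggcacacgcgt
Ppard: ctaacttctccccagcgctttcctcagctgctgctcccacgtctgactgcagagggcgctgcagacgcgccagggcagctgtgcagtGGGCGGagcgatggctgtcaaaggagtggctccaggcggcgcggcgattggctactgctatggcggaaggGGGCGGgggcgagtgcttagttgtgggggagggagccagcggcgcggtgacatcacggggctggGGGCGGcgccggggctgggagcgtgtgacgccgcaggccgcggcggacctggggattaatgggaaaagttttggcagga
Both windows are rich in G and C, with 74.7% in Ppara and 68.3% in Ppard, against a median of 52.7% over all windows. The GC box core occurred at 2 places in Ppara and 3 in Ppard, and in 35.7% of all 32851 windows. The hexamer AGGTCA, which nuclear receptors of this class bind in pairs, was in neither window. It stood in 4 of 16 windows of the 9 members found in the table, which belong to Pparg, Rxra and Rxrg, and in 16.3% of all windows. A match is a run of letters and not a measured binding site.

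The dimer partners showed no difference near the size seen for Ppara. Rxra, which encodes the main RXR of epithelia, had 1246 on EPA&DHA and 1295 on the control diet on its brightest probe set, a log2 ratio of -0.06. A dimmer probe set read 400 on EPA&DHA and 339 on the control diet, a log2 ratio of 0.24. The 2 probe sets differ in sign, and both ratios are within 1 local SD of 0. The remaining probe set of Rxra had 6.02 on EPA&DHA and 29.9 on the control diet, under the level of the filter. Rxrb, the most evenly expressed RXR, had 623 on EPA&DHA and 554 on the control diet, a log2 ratio of 0.17 and 0.61 local SDs from 0. Rxrg, an RXR of muscle and brain, read 26.7 on EPA&DHA and 5.21 on the control diet. Neither signal reached the lowest mean signal kept, so the large ratio between them is not given as a difference.

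Ppargc1a was read by 5 kept probe sets that did not move together. The brightest, 1456395_at, had 1725 on EPA&DHA and 1914 on the control diet, a log2 ratio of -0.15. The pair 1434100_x_at and 1434099_at, designed on the same target sequence, had log2 ratios of 0.23 and 0.24, and 1437751_at had 0.15. In contrast, 1460336_at had 834 on EPA&DHA and 1220 on the control diet, 1.46-fold lower and 2.24 local SDs from 0. It was the only kept member probe set outside Ppara more than 2 local SDs away, against 7.7% of all kept probe sets. The range of 0.79 compares with a median of 0.71 in the 231 genes with 5 kept probe sets, and of 0.47 in the 23 of them whose probe sets all had a mean signal of at least 500. The mean over the 5 probe sets was a log2 ratio of -0.01. Which part of the gene each probe set reads was not analysed here.

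Ppargc1b, the related coactivator, had 1450 on EPA&DHA and 1483 on the control diet, a log2 ratio of -0.03 on its only probe set. Nrip1, the repressor, was read by 6 kept probe sets, more than any other member. The brightest had 3397 on EPA&DHA and 3464 on the control diet, a log2 ratio of -0.03. The next had 3384 on EPA&DHA and 3337 on the control diet, a log2 ratio of 0.02. Both probe sets thus read nearly the same on the 2 arrays. Over all 6, 4 ratios were below 0 and 2 above, from -0.24 to 0.02, and none was past 1 local SD. This range of 0.26 compares with a median of 0.82 in the 97 genes with 6 kept probe sets, and of 0.39 in the 5 of them with all mean signals at 500 or more.

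Ordered by ratio, Ppara stood first, followed by Rxrb, Nrip1, Ppargc1b, Rxra, Ppargc1a, Pparg and Ppard. The gap between Ppara and Rxrb was 0.71 on the log2 scale, 1.87 times the combined local SD of the pair. The other 6 gaps between neighbours were at most 0.31, and none exceeded 0.72 of the combined local SD. Neighbours below Ppara are therefore not told apart by these arrays. Sorting places close values side by side, so small gaps were likely whatever the true differences. The gap above Rxrb was singled out as the largest, so its size is no test that Ppara differs. Members further apart in the order, such as Rxrb and Ppard, were not compared in this way.

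**Figure D3:**
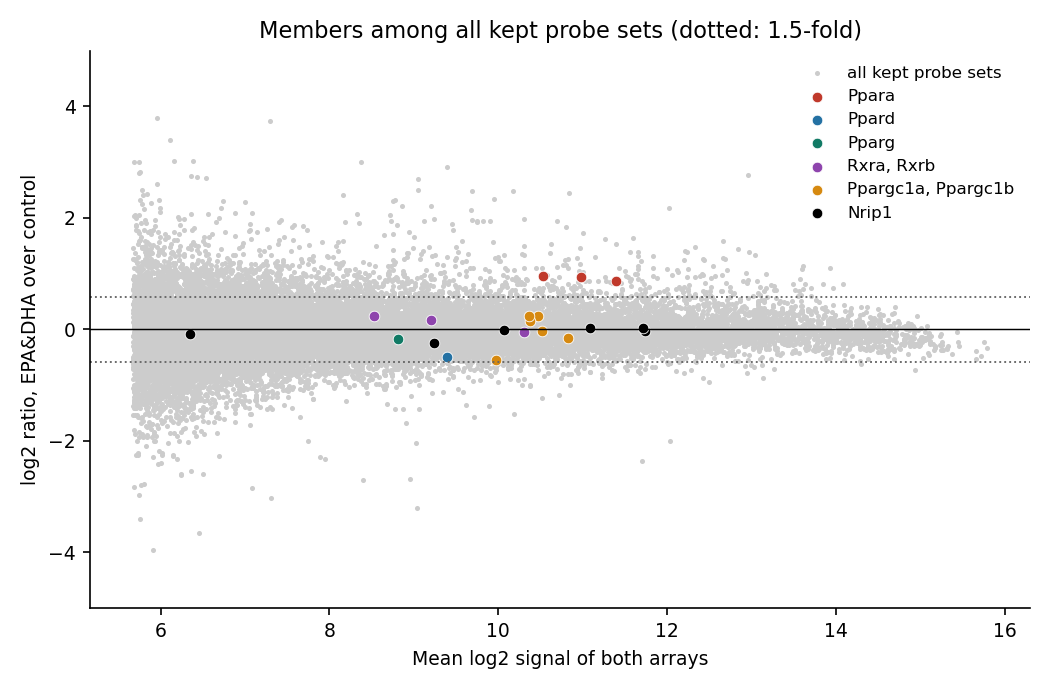
Log2 ratio of EPA&DHA over control (y axis) against mean log2 signal of both arrays (x axis) for all kept probe sets (grey), with the members in colour and 1.5-fold as dotted lines. The 3 probe sets of Ppara lie above the upper line at a signal where most probe sets lie between the lines, and the other 17 lie between the lines.

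Further genes of the same machinery were mostly close to 1. Of 17 measured coactivators beyond the PGC-1 genes, 0 were at least 1.5-fold apart in either direction on their brightest probe set, and their median log2 ratio was 0.03. The deacetylase Sirt1, which acts on PGC-1α, was highest at 0.29 with Prdm16, a coregulator of brown fat, at 0.28. The acetyltransferase Ep300 was lowest at -0.42, from signals of 1738 on EPA&DHA and 2329 on the control diet, and the chromatin remodelling subunit Smarcd1 stood at -0.20. Other kept probe sets of 2 of these genes passed 1.5-fold, down to -1.16 for Ncoa2 and from -0.81 to 0.59 for Med1, whose brightest probe sets stood at 0.18 and -0.05.

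Of 8 measured genes of corepressor complexes, again 0 were at least 1.5-fold apart on their brightest probe set, with a median of -0.18 and 6 of 8 below 0. Hdac3, the deacetylase that NCoR1 activates, was at -0.01, and Tbl1x and Tbl1xr1, which bind NCoR1, were at -0.16 and -0.20. The lowest were Nr0b2, the small heterodimer partner that represses other nuclear receptors, at -0.38 and the scaffold Sin3a at -0.28. The highest were Ctbp2 and Ctbp1, corepressors that RIP140 recruits, at 0.18 and 0.04. Other kept probe sets of Sin3a and Tbl1xr1 read the opposite way and passed 1.5-fold, at up to 0.64 for Sin3a and 0.95 for Tbl1xr1.

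Other receptors that pair with RXR were more varied. Among 11 measured, 1 reached 1.5-fold higher and 1 reached 1.5-fold lower, with a median of 0.10. Nr1h4, the bile acid receptor FXR, had 1768 on EPA&DHA and 959 on the control diet, a log2 ratio of 0.88 on 1 kept probe set. This ratio is about that of Ppara. The orphan receptor Nr4a1 was 2.12-fold lower, but at 52.7 on EPA&DHA and 112 on the control diet it was dim, with a local SD of 0.58. The thyroid hormone receptor Thrb stood at 0.47, also dim, and the retinoic acid receptor Rara at -0.21. The vitamin D receptor Vdr, bright on both arrays, stood at 0.10, and the sterol receptor Nr1h3 at 0.05.

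Factors listed as partners of PGC-1 or as acting downstream of it had a median of -0.01, and 0 of 9 were at least 1.5-fold apart. Tfam, which maintains mitochondrial DNA, was highest at 0.38, although its other probe set stood at -0.26, and Gabpa followed at 0.12. The hepatocyte nuclear factor Hnf4a, a main regulator of the enterocyte, was lowest at -0.31, with 11778 on EPA&DHA and 14577 on the control diet, and Esrrb was next at -0.29. The probe sets of Hnf4a also disagreed, from -0.45 to 0.54.

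In contrast, 8 of 17 measured target genes of PPARα reached 1.5-fold higher on their brightest probe set. On the same reading 0 reached 1.5-fold lower, and the median log2 ratio was 0.58. The study picked several of these targets on the very arrays read here, and the list is therefore no independent evidence of a direction. The largest log2 ratios were 2.92 for the thioesterase Acot1, 1.61 for the kinase Pdk4, 1.31 for the peroxisome factor Pex11a, 1.10 for the thiolase Acaa1b, 1.06 for the fatty acid translocase Cd36 and 1.02 for the lipase inhibitor Angptl4. Acaa1b had signals of 22770 on EPA&DHA and 10648 on the control diet, 2.14-fold higher. Angptl4, a target common to the PPARs, had signals of 2940 on EPA&DHA and 1445 on the control diet. Acaa1a stood lowest at -0.26 on its brightest probe set, but at 0.90 on the other, followed by the liver fatty acid binding protein Fabp1 at -0.23. Cpt1a stood at 0.39 on the brightest of its 3 kept probe sets, short of 1.5-fold, but at up to 2.07 on the others.

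Genes that PPARγ controls in fat cells gave a mixed picture, with 1 of 6 measured genes past 1.5-fold higher and 1 past 1.5-fold lower. Pck1, which encodes an enzyme of gluconeogenesis and glyceroneogenesis, had 4812 on EPA&DHA and 2181 on the control diet, 2.21-fold higher. Lpl, the lipoprotein lipase, was 1.68-fold lower on 1 kept probe set. It was dim, with 141 on EPA&DHA, 238 on the control diet and a local SD of 0.43. The adipokine Adipoq stood at 0.27 and the glycerol channel Aqp7 at -0.33 on its brightest probe set, but at 0.79 on the other. Fabp4, the fatty acid binding protein of fat cells, likewise stood at 0.02 on its brightest probe set and at 1.16 on the other. Among 7 measured genes listed as fatty acid carriers or for ligand supply, Fabp4 among them, 0 were at least 1.5-fold apart on their brightest probe set. Fabp5, which delivers ligands to PPARδ, had a log2 ratio of 0.22. The ileal Fabp6, a family member that carries bile acids, had 0.08. Fasn, the fatty acid synthase, had -0.33 and the intestinal carrier Fabp2 -0.30.

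**Figure D4:**
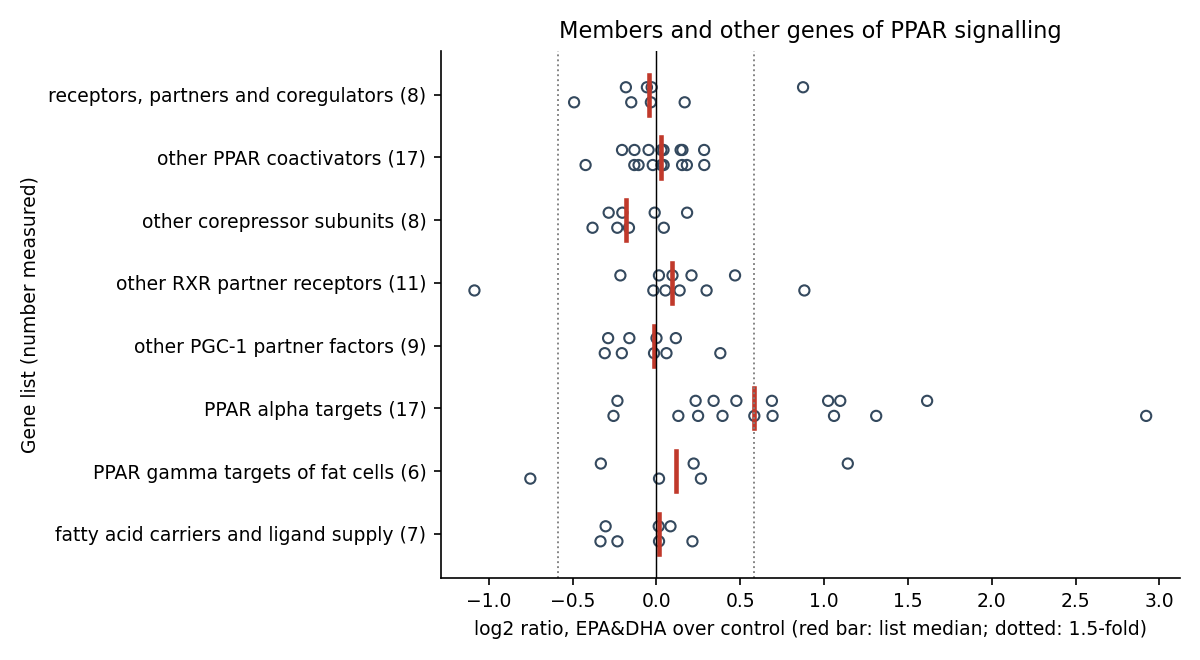
Log2 ratio of EPA&DHA over control (x axis) for the measured members and for 7 lists of related genes (circles), with list medians as red bars and 1.5-fold as dotted lines. The median is 0.58 for PPARα targets and between -0.18 and 0.12 for the other lists.

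Markers of cell types and of other responses were read on the same arrays. The study's methods describe scraped epithelium, whereas the labels describe whole intestine. Of 10 enterocyte markers 9 were measured, all with high signals. On their brightest probe set all were below 0, from -0.38 to -0.03, with a median of -0.14. Other kept probe sets of Slc5a1 and Cdx2 read the opposite way, at up to 0.74 and 0.11. The summed signal of the brightest probe sets was 251354 on EPA&DHA and 293090 on the control diet. Smooth muscle markers had a summed signal of 1152 on EPA&DHA and 1332 on the control diet over 5 genes, most of it from Acta2 with 767 on EPA&DHA and 851 on the control diet. In RNA from a mixture of cells, fewer cells of a type and less RNA per cell cannot be told apart. All 7 measured markers of the exocrine pancreas were at least 1.5-fold higher, with a summed signal of 11538 on EPA&DHA and 3074 on the control diet. Of B and plasma cell markers, 3 of 4 were at least 1.5-fold lower on their brightest probe set. Ms4a1, 1 of these 3, stood at -0.11 on its other probe set. Jchain read the other way, with 14860 on EPA&DHA and 11507 on the control diet. It made up most of the summed signal of 15427 on EPA&DHA and 12433 on the control diet. Of adipocyte markers 4 of 7 were measured, of which only Retn was at least 1.5-fold apart, 2.37-fold lower from a dim 63.3 on EPA&DHA and 150 on the control diet. On their brightest probe set, macrophage markers were 0 of 6 at least 1.5-fold apart, and of 3 measured T cell markers 1 was higher and 1 lower. The lower one, Cd8a, stood at up to 0.02 on its other probe sets. Among 14 clock genes, 6 were at least 1.5-fold higher and 2 lower on their brightest probe set. These include Dbp with 6372 on EPA&DHA and 3134 on the control diet and Arntl (Bmal1) 1.77-fold lower. Arntl stood at -0.19 on its other probe set, and Per2, counted as higher, stood as low as -0.07 on another. Of 8 genes that respond to glucocorticoids and fasting, 3 were higher and 1 lower on the same reading. Other probe sets read the opposite way for Fkbp5, counted as higher, at -0.12, and for Zbtb16, the lower one, at 0.27. The 24 probe sets for the labelling spikes dap, lys, phe and thr had a median log2 ratio of 0.34. With the 3 trp probe sets, which were dim and were set apart after their values were seen, it was 0.32. The 18 probe sets for transcripts added at hybridization had a median log2 ratio of -0.11. The 3'/5' signal ratio of Gapdh was 0.793 on EPA&DHA and 0.932 on the control diet, and that of Actb was 1.16 on EPA&DHA and 1.22 on the control diet. The part of these differences in the higher signal of Ppara was not tested.

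The members were also read under 12 other ways of processing. The log2 ratio of Ppara ran from 0.79 to 1.02, so it stayed at least 1.73-fold higher, and that of Ppard from -0.57 to -0.35. For Ppara, the deposited scaling, the other filters and dropping _s_at and _x_at probe sets gave 0.87, as reported. These alternatives keep its probe set and its scale and so could not move it. No alternative brought another measured member to 1.5-fold. The labelling spikes were not among the scalings tried. Scaling to their median would lower every log2 ratio by 0.34. Ppara would then fall short of 1.5-fold higher on its brightest probe set, and Ppard would pass 1.5-fold lower.

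**Figure D5:**
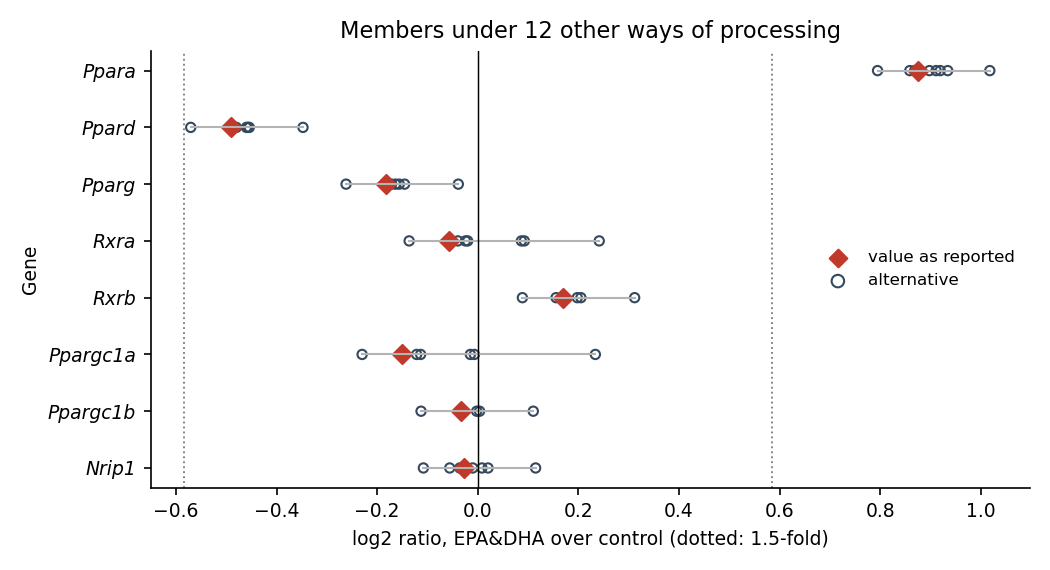
Log2 ratio of EPA&DHA over control (x axis) of each measured member as reported (diamonds) and under 12 other ways of processing (circles), with 1.5-fold as dotted lines. Ppara stays between 0.79 and 1.02 and the other 7 members stay between the lines.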

How the data were processed

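RNA was isolated from small intestine with TRIzol and columns and pooled per diet, and each pool was labelled by the one-cycle protocol and hybridized to 1 array. The authors summarized probe intensities with MAS 5.0, version not stated in labels or methods, and deposited 1 signal per probe set, scaled to a 2% trimmed mean of 500. Of 45101 probe sets, 64 control probe sets were set aside. Gene names came from the platform annotation, updated through gene identifiers to a RefSeq gene table, and 34945 probe sets named 1 gene, 932 several and 9160 none. Arrays were set to the same trimmed mean, log2 ratios of EPA&DHA over control were taken, and the brightest 53.9% of probe sets, as many as the methods count as expressed, were kept. All 10 members are named with every probe set. In each further list, the genes at least 1.5-fold apart (at most the 6 largest) and the 2 highest and 2 lowest are named, and any other gene was chosen after its values were seen. Marker lists are given mainly as counts, with few of these genes printed. Members and lists were written from general knowledge with earlier results of these data known. Alternatives covered scaling (none, median, quantile, loess with span 0.3, Canx and Hprt, enterocyte markers), an offset of 50, the filter and the choice of probe set. The calculation was tested on simulated data. With 1 array per diet, precision rests on the local SD alone. Detection calls and change p-values were not used here. Ratios and filters ran in pandas 2.3.3 and numpy 2.4.6 under Python 3.11.15, loess in statsmodels 0.14.6, and plots in matplotlib 3.10.9.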

Additional observations from a re-analysis of the deposited data

How the results depend on the processing

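Across 12 alternatives the count of members at least 1.5-fold higher stayed at 1, except that it was 2 without a filter on dim signals, where Rxrg entered with signals of 26.7 on EPA&DHA and 5.21 on the control diet. The count of members at least 1.5-fold lower was 0 throughout, and the median of the members ran from -0.12 to 0.10. The second brightest probe set gave 0.24 for Rxra and 0.23 for Ppargc1a, against -0.06 and -0.15 on the brightest. Small ratios changed sign with the scaling, as for Nrip1, from -0.11 to 0.11, and Ppargc1b, from -0.11 to 0.11. Ratios relative to Canx and Hprt, the reference genes of the study's PCR, and relative to the enterocyte markers were chosen after seeing the data, and they gave the lowest and the highest value of Ppara. Canx was read there by its brightest probe set, at a log2 ratio of 0.15. Its other kept probe sets stood at -0.19 and -0.01, and Hprt stood at 0.01. The median of all genes was -0.13 relative to Canx and Hprt and 0.09 relative to the enterocyte markers. Over all genes, 43.9% of those at least 1.5-fold apart were higher as reported, against 31.7% relative to Canx and Hprt, 65.3% relative to the enterocyte markers and 57.5% among the brightest 25% of probe sets. The counts of genes at least 1.5-fold higher and lower were 723 and 923 as reported, 408 and 480 with the offset of 50, 2633 and 3552 without a filter, 214 and 158 among the brightest 25% and 1145 and 608 relative to the enterocyte markers. With 1 array per diet, no array could be left out in turn and no alternative measures the spread between mice. No paired analysis was possible because each diet had 1 pool.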
